A study of Mus musculus with 12 samples.

Results

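Tetraspanin genes were followed through the direct reprogramming of mouse cardiac fibroblasts with *Sox17* and *Erg*. The 10 genes described are *Cd9*, *Cd63*, *Cd81*, *Cd82*, *Cd151*, *Cd37*, *Tspan2*, *Tspan8*, *Tspan12* and *Tspan18*, which are 10 of the 31 tetraspanin genes among the 35727 genes of the deposited table, and they were taken by gene symbol. The genes were put forward with the expression differences between *Sox17*-*Erg* and control in these same libraries known. All values of the 10 genes are therefore given below as a description, with no p. Cells came from pooled hearts of neonatal *C57BL/6J* mice (Day 0 to Day 3 after birth) and were labelled fibroblast in the control groups, whose columns carry the prefix PMX after the retroviral backbone, and iEC (induced-endothelial cell) in the *Sox17*-*Erg* groups, which were infected with retroviruses carrying *Sox17* and *Erg*. All 12 samples were cultured in EGM2 media and were harvested at Day 3, Day 7 or 4 weeks, with 2 libraries in each of the 6 groups of treatment and time point. The starting cells were selected with a THY1 antibody on magnetic beads, after a depletion of PECAM1-positive cells, per the methods of the study. No sorting of the cultured cells at harvest is given in the sources used here, so each library is an average over the cells of a culture, and fewer cells of a type and less RNA per cell cannot be told apart. The labels do not say whether the 2 libraries of a group came from separate isolations, and the errors then measure the spread between these libraries, which may be technical.

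Tetraspanins are small proteins that cross the membrane repeatedly and gather integrins, proteases, receptors and each other into membrane microdomains. CD9, CD63 and CD81 are widely used as markers of extracellular vesicles, and CD63 also marks late endosomes and lysosomes. In endothelium, TSPAN12 acts with the receptor FZD4 in Norrin signalling of retinal vessels, TSPAN18 binds the calcium channel ORAI1, and CD151 and CD9 sit with integrins at cell contacts.

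The libraries held 19011635 to 41240449 counts. *Sox17* was at 432 to 1040 CPM (counts scaled to library size with TMM factors) in the *Sox17*-*Erg* libraries against 0 to 0.416 CPM in control, and *Erg* at 17.1 to 65.2 against 0.0728 to 2.27 CPM. Counts per gene do not separate the retroviral from the native transcripts. The summed level of 10 endothelial markers was 20.9 to 61.4 CPM in control and 314 to 774 CPM in *Sox17*-*Erg* libraries. That of 10 fibroblast markers was 17000 to 40400 CPM and 13100 to 42300 CPM over all time points. The fibroblast sums overlapped at Day 3 and Day 7. They were apart at 4 weeks, at 20600 and 17000 CPM in control and 13100 and 13700 CPM with *Sox17*-*Erg*. At 4 weeks 7 of the 9 endothelial markers tested were higher with *Sox17*-*Erg*, and of the 10 fibroblast markers 4 were lower (*Tcf21*, *Pdgfra*, *Dcn* and *Lum*) and *Postn* was higher. A gene is named as called where edgeR's quasi-likelihood test gave a Benjamini-Hochberg adjusted p under 0.05 over all 15506 genes tested.

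Promoters of a pair of genes that diverged between control and *Sox17*-*Erg*, *Cd9* and *Tspan2*, are printed beside that of *Cd81*, the tetraspanin with the most counts per exon length. Each window runs from 250 bases before to 50 bases after the gene start (RefSeq, GRCm38.p6, 5′ to 3′ on the strand of the gene). They lie at chr6:125494711-125495010 on the minus strand, chr3:102734520-102734819 on the plus strand and chr7:143052500-143052799 on the plus strand. Capitals mark CCGGAA or its reverse complement TTCCGG, letters bound by ETS factors such as ERG, and no other letters were marked.
Cd9: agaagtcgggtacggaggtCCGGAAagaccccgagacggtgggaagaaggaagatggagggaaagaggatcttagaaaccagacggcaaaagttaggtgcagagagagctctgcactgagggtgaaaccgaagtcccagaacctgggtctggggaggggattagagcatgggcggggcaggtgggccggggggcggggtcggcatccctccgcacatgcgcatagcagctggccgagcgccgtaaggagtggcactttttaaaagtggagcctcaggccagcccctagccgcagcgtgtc
Tspan2: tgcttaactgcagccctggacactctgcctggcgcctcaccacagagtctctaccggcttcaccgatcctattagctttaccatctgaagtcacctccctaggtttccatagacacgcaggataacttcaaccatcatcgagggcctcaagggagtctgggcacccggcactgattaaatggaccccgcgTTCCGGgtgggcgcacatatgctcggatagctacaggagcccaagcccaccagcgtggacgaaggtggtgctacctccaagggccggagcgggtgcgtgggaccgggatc
Cd81: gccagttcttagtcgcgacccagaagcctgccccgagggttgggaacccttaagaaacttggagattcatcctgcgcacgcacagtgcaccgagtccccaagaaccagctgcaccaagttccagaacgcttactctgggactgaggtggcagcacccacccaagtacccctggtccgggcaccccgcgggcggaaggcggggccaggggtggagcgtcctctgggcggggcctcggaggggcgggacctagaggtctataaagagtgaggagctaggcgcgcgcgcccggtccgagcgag
CCGGAA began at position -231 of the *Cd9* promoter on its strand and at -60 of the *Tspan2* window printed here on the other strand, counted from the gene start, and was not in the *Cd81* window. *Tspan2* has a second start, whose window (chr3:102734965-102735264) did not hold it. The SOX letters ACAAT or ATTGT were in none of the 3. Promoters were found for 9 of the 10 genes, 14 in all with alternative starts, and *Tspan18* had no entry. CCGGAA was in 3 of the 14 (*Cd9*, the first start of *Tspan2* and *Cd37*) and ACAAT in 2 of the 14 (*Cd37* and the second start of *Cd151*), the *Cd37* window holding both at separate positions (-30 and -159). Among all 32851 promoters of this length 14.9% held CCGGAA and 31% held ACAAT on either strand. The 20 other tetraspanin genes with an entry had 25 promoters, of which 4 held CCGGAA and 8 held ACAAT. A match of these letters is a description of the window and not a binding site.

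*Cd9* moved in opposite directions over time in the control and *Sox17*-*Erg* samples. It lies at chr6:125460266-125494791 on the minus strand (GRCm38) and encodes a tetraspanin of the cell surface and of vesicles, with roles in adhesion and membrane fusion. In control libraries *Cd9* was at 82.4 and 95.8 CPM at Day 3, 46.7 and 39.4 CPM at Day 7, and 19.6 CPM in both at 4 weeks. In *Sox17*-*Erg* libraries it was at 55.5 and 67.8 CPM at Day 3, 105 and 95.6 CPM at Day 7, and 225 and 172 CPM at 4 weeks. Both *Sox17*-*Erg* libraries were below both control libraries at Day 3 and above them at Day 7 and 4 weeks. The log2 fold change against control was -0.53 ± 0.16 (standard error of the fit, as for each log2 value below) at Day 3, which was not called, 1.22 ± 0.16 at Day 7 and 3.34 ± 0.18 at 4 weeks, which were called, the last a 10.1-fold difference. The Day 3 difference was called by DESeq2 and under 4 other settings, with values of -0.58 to -0.53. From Day 3 to 4 weeks *Cd9* fell by 2.18 ± 0.17 on the log2 scale in control and rose by 1.69 ± 0.16 with *Sox17*-*Erg*, and the difference between these changes was 3.87 ± 0.24. The Day 7, 4-week and time calls of *Cd9* were kept in each of the 12 fits that left out 1 library.

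**Figure D1:**
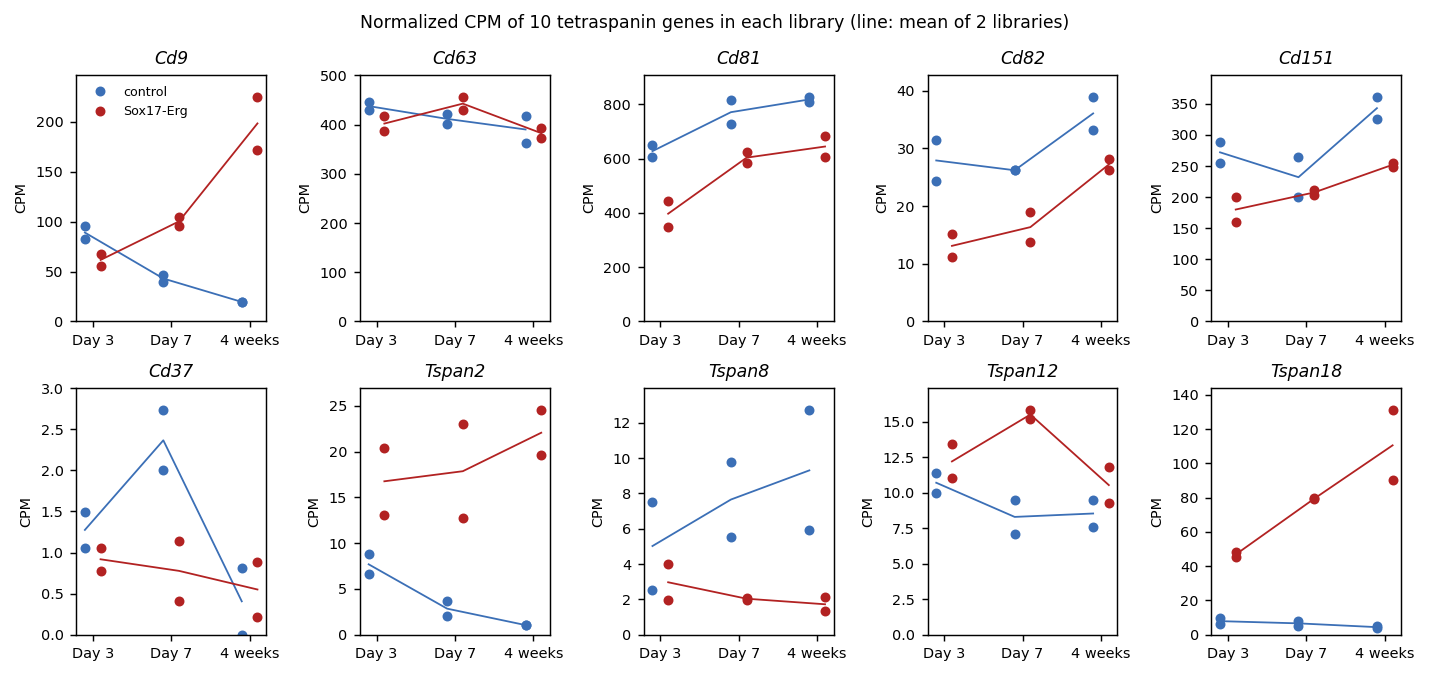
Normalized CPM of the 10 genes (y axes, linear from 0) in each library at Day 3, Day 7 and 4 weeks (x axes), control in blue and *Sox17*-*Erg* in red, with lines through the means of 2 libraries. *Cd9* runs from 82.4 and 95.8 CPM down to 19.6 CPM in control and up to 225 and 172 CPM with *Sox17*-*Erg*, while *Cd63* stays between 363 and 456 CPM in every library.

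*Cd63* (chr10:128900989-128912822, plus strand) and *Cd81* (chr7:143052739-143067934, plus strand), the other vesicle-associated members, did not follow *Cd9*. *Cd63* was at 363 to 456 CPM in all 12 libraries. Its log2 fold changes at the 3 time points were -0.12 ± 0.12, 0.11 ± 0.12 and -0.03 ± 0.12, and none was called. *Cd81*, a partner of CD9 that is also part of the B-cell co-receptor, was at 606 and 649 CPM in control and at 349 and 445 CPM with *Sox17*-*Erg* at Day 3. It was at 816 and 726 against 583 and 624 CPM at Day 7, and at 827 and 809 against 683 and 606 CPM at 4 weeks, so the *Sox17*-*Erg* libraries were lower without overlap at each time point. The log2 fold change was called at Day 3 (-0.66 ± 0.15) and not at Day 7 (-0.35 ± 0.15) or 4 weeks (-0.34 ± 0.15). The Day 3 call was lost without either control library of Day 3 or without *Sox17*-*Erg* replicate 1 (-0.71 to -0.54). Within the *Sox17*-*Erg* samples *Cd81* rose by 0.70 ± 0.15 from Day 3 to 4 weeks, a call lost without *Sox17*-*Erg* replicate 1 of Day 3 or of 4 weeks (range over all libraries left out 0.59 to 0.89).

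*Cd151* and *Cd82*, which associate with integrins, were lower with *Sox17*-*Erg* at Day 3. *Cd151* (chr7:141467392-141471473, plus strand), a partner of laminin-binding integrins, was at 255 and 289 CPM in control and 160 and 200 CPM with *Sox17*-*Erg* at Day 3 (log2 -0.60 ± 0.16, called). Its groups overlapped at Day 7, with 264 and 200 against 211 and 204 CPM (-0.16 ± 0.16), and were apart at 4 weeks, with 361 and 325 against 249 and 255 CPM (-0.44 ± 0.16, not called, although called by DESeq2 and with the block within each time point). The Day 3 call of *Cd151* was lost in 8 of the 12 fits that left out 1 library, with values of -0.76 to -0.49 over all 12, and with the replicate number as a block. *Cd82* (chr2:93419111-93463140, minus strand), known as a suppressor of metastasis, was at 24.3 and 31.5 against 11.1 and 15.1 CPM at Day 3 (-1.08 ± 0.21, called). It was at 26.2 in both control libraries against 13.7 and 19 CPM at Day 7 (-0.68 ± 0.20, called), and at 33.2 and 38.9 against 26.2 and 28.2 CPM at 4 weeks (-0.40 ± 0.20, not called). For *Cd82* the *Sox17*-*Erg* libraries were below both control libraries at all 3 time points. The Day 3 call was lost without control replicate 2 or *Sox17*-*Erg* replicate 1 of Day 3 (-0.92 in both fits), and the Day 7 call in 9 of 12 such fits (-0.98 to -0.46 over the 12) and in the fit of Day 7 alone (-0.70). *Cd82* rose by 1.05 ± 0.21 and *Cd151* by 0.49 ± 0.16 from Day 3 to 4 weeks with *Sox17*-*Erg*, the latter call being lost in 6 of 12 fits that left out 1 library (0.39 to 0.66 over the 12) and with the replicate block.

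*Tspan18* and *Tspan2* were the members with the largest log2 differences at 4 weeks, both higher with *Sox17*-*Erg*. *Tspan18* (chr2:93201760-93334505, minus strand), the ORAI1 partner, was at 6.11 and 9.80 CPM in control and 45.5 and 48.2 CPM with *Sox17*-*Erg* at Day 3. It was at 5.26 and 8.04 against 79.0 and 79.8 CPM at Day 7, and at 4.86 and 4.03 against 131 and 90.1 CPM at 4 weeks. The groups were far apart at every time point, with log2 fold changes of 2.56 ± 0.28, 3.58 ± 0.29 and 4.63 ± 0.30, the last a 24.7-fold difference, and each call was kept without any 1 library. From Day 3 to 4 weeks *Tspan18* rose by 1.24 ± 0.26 with *Sox17*-*Erg*, a call lost without replicate 1 of Day 3 or of 4 weeks (0.99 to 1.48 over all libraries left out), and changed by -0.83 ± 0.28 in control, which was not called. The difference between these changes was 2.06 ± 0.38. It was called, although not in 6 of the 12 fits that left out 1 library (1.76 to 2.37 over the 12).

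*Tspan2* (chr3:102734529-102801513, plus strand), known from oligodendrocytes and from smooth muscle, was at 8.77 and 6.61 CPM in control and 20.4 and 13.1 CPM with *Sox17*-*Erg* at Day 3. It was at 3.65 and 2.05 against 23.0 and 12.7 CPM at Day 7, and at 1.05 and 1.06 against 24.5 and 19.6 CPM at 4 weeks. The *Sox17*-*Erg* libraries were higher without overlap throughout, and the log2 fold change was 1.12 ± 0.35 at Day 3 (not called), 2.65 ± 0.38 at Day 7 and 4.38 ± 0.41 at 4 weeks (both called, also without any 1 library). The Day 3 difference was called by DESeq2, without a filter on low counts and with either replicate block, with values of 1.11 to 1.13, and without *Sox17*-*Erg* replicate 1 of Day 7 (1.12). *Tspan2* fell by 2.86 ± 0.40 over time in control and changed by 0.39 ± 0.34 with *Sox17*-*Erg*, which was not called. The difference between the changes, 3.26 ± 0.53, was called in 8 of the 12 fits that left out 1 library (2.97 to 3.65 over the 12). Summed per library, the 6 smooth muscle markers were at 3520 and 3120 CPM in control and 4510 and 4190 CPM with *Sox17*-*Erg* at Day 3. The sums were 1280 and 484 against 4080 and 1640 CPM at Day 7, and 941 and 2450 against 4040 and 3860 CPM at 4 weeks. Both *Sox17*-*Erg* sums were thus above both control sums at each time point. Of the 6 markers 4 were called higher and 1 lower at Day 7, and 3 higher (*Myh11*, *Cnn1* and *Myocd*) and 1 lower (*Des*) at 4 weeks. Their part in the *Tspan2* values was not tested.

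*Tspan12* and *Tspan8* were each called at 1 time point. *Tspan12* (chr6:21771395-21852515, minus strand) was at 10 and 11.4 CPM in control and 11 and 13.4 CPM with *Sox17*-*Erg* at Day 3, which overlap. At Day 7 it was at 9.52 and 7.07 against 15.8 and 15.2 CPM (log2 0.90 ± 0.20, called), and at 4 weeks at 7.59 and 9.48 against 9.27 and 11.8 CPM, again with overlap. The Day 7 call was lost without control replicate 2 or either *Sox17*-*Erg* library of Day 7 and in the fit of that time point alone (0.70 to 0.88). *Tspan8* (chr10:115816832-115849893, plus strand), an epithelial and tumor tetraspanin, was at 7.50 and 2.54 CPM in control and 4.00 and 1.94 CPM with *Sox17*-*Erg* at Day 3, with overlap. It was at 9.79 and 5.51 against 2.10 and 1.98 CPM at Day 7, and at 12.7 and 5.90 against 2.12 and 1.33 CPM at 4 weeks, where the control libraries were higher without overlap. The log2 fold changes were -0.77 ± 0.59, -1.91 ± 0.60 and -2.43 ± 0.61, of which the last was called. Without control replicate 1 or either *Sox17*-*Erg* library of 4 weeks that call was lost (-2.81 to -1.77), and the Day 7 difference was called by DESeq2 and under 4 other settings (-1.95 to -1.84 over the 7 tried) and without either control library of Day 3.

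Replicate 1 held more *Tspan8* than replicate 2 in all 6 groups, and the same held for mesothelial markers, genes of the sheet that covers the heart. The summed level of 8 such markers was 962 and 392 CPM at Day 3, 1250 and 688 CPM at Day 7, and 1750 and 1100 CPM at 4 weeks in control. With *Sox17*-*Erg* it was 319 and 191, 388 and 292, and 399 and 249 CPM. None of the 8 was at 0 in both libraries of any group, and the number called lower with *Sox17*-*Erg* was 1, then 5, then 7 over the 3 time points. *Upk1b*, a uroplakin of urothelium and mesothelium, showed the same order, at 126 and 45.5, 112 and 56.3, and 146 and 91.5 CPM in control and 28.6 and 19.6, 31.4 and 20.8, and 24.1 and 13 CPM with *Sox17*-*Erg*. Whether equal replicate numbers mark paired libraries is not stated in the labels. The starting cells had been selected for THY1, and the part of these markers in the *Tspan8* values was not tested.

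*Cd37* (chr7:45233632-45239115, minus strand), a leukocyte tetraspanin, was near the lower limit of measurement. It had 0 to 68 counts per library, at most 2.73 CPM, and was at 0 counts in control replicate 1 of 4 weeks, which allows up to 3 counts or 0.0752 CPM by counting error. Its log2 fold changes of -0.48 ± 1.12, -1.63 ± 1.11 and 0.55 ± 1.22 were not called. The summed level of 10 leukocyte markers was highest in the control libraries of Day 7 (855 and 1260 CPM), where *Cd37* was at 2 and 2.73 CPM. It was lowest in control replicate 1 (46.8 CPM) and *Sox17*-*Erg* replicate 1 (63.6 CPM) of 4 weeks, where *Cd37* was at 0 and 0.212 CPM. *Cd53*, another leukocyte tetraspanin, was at 10.4 and 8.36 CPM in the former and 1.40 and 1.38 CPM in the latter libraries. None of the 9 leukocyte markers tested was called between *Sox17*-*Erg* and control at any time point. The THY1 selection of the starting cells holds for these markers too, and their part in the *Cd37* values was not tested. *Cd37* also overlaps *Tead2*, which was at 11.5 to 59.8 CPM, on the opposite strand, and whether the quantification used strand is not given in the sources used here. Exons of *Cd9*, *Cd81*, *Cd151*, *Tspan2*, *Tspan8* and *Tspan12* overlap an opposite-strand gene as well, whose level is not given here.

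**Figure D2:**
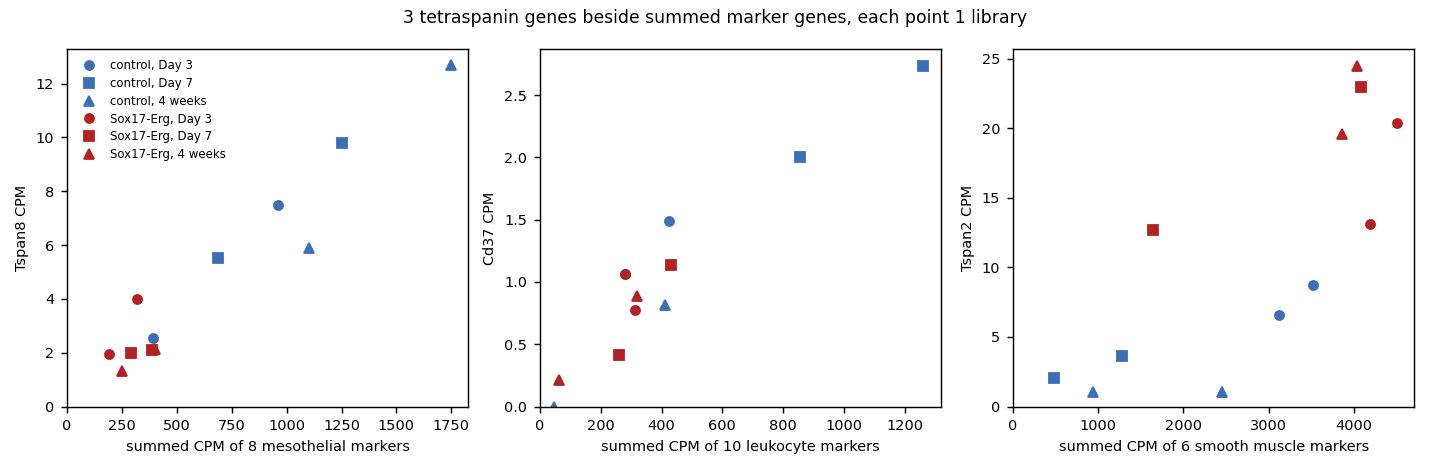
Normalized CPM of *Tspan8*, *Cd37* and *Tspan2* (y axes) against the summed CPM of 8 mesothelial, 10 leukocyte and 6 smooth muscle markers (x axes), each point 1 library, colored by treatment with a shape for each time point. The highest *Tspan8* value (12.7 CPM) is in the library with the highest mesothelial sum (1750 CPM), the highest *Cd37* value (2.73 CPM) in that with the highest leukocyte sum (1260 CPM), and *Tspan2* is at 12.7 CPM or more in every *Sox17*-*Erg* library.

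Among the 10 genes 1 was called higher and 3 lower at Day 3, where 7.19% of all genes tested were called higher and 5.13% lower. Day 7 had 4 higher (*Cd9*, *Tspan2*, *Tspan12* and *Tspan18*) and 1 lower, with 9.48% and 7.93% of all genes. The 4-week samples had 3 higher and 1 lower, with 11.9% and 11% of all genes. The median log2 fold change of the 10 was -0.51, -0.03 and 0.14 at the 3 time points, against 0.01, 0.006 and -0.014 over all genes tested. From Day 3 to 4 weeks 0 of the 10 were called higher and 2 lower in control (*Cd9* and *Tspan2*, with 13.9% and 12.6% of all genes). With *Sox17*-*Erg* 5 were higher and 0 lower (*Cd9*, *Cd81*, *Cd82*, *Cd151* and *Tspan18*, with 15.1% and 15.6%). The difference in effect between 4 weeks and Day 3 was called higher for *Cd9*, *Tspan2* and *Tspan18* (2.22% of all genes higher and 0.987% lower). With the replicate number as a block within each time point, the 10 genes had 6, 6 and 5 calls in place of 4, 5 and 4, and 23.2%, 27.1% and 31% of all genes were called in place of 12.3%, 17.4% and 22.9%. All these counts rest on the libraries with which the genes were put forward.

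**Figure D3:**
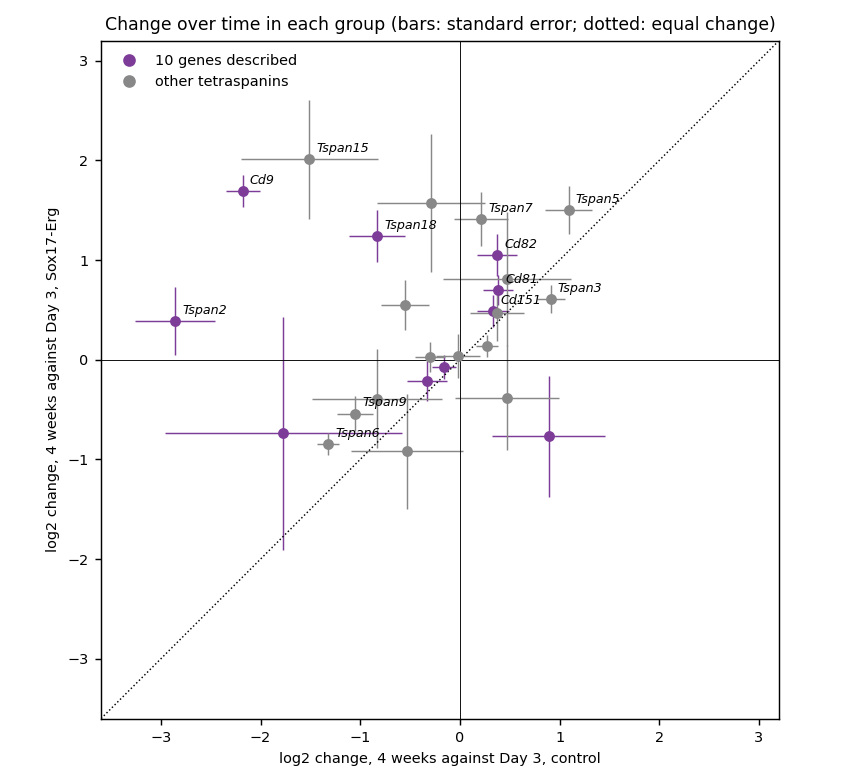
Log2 change from Day 3 to 4 weeks in control (x axis) and with *Sox17*-*Erg* (y axis) for the 26 tetraspanin genes tested, with bars for the standard error and a dotted line of equal change. *Cd9* lies at -2.18 and 1.69 and *Tspan2* at -2.86 and 0.39, left of the line, and *Tspan6* at -1.32 and -0.85.

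The remaining family members are those left after the 10 genes were selected on these libraries. Their comparisons were tested in the fit over all genes, but as a set they are not independent of the values. Of these 21 genes, 16 passed the filter on low counts. *Tspan1*, *Tspan10*, *Tspan11*, *Upk1a* and *Prph2* did not, with at most 11 counts in any library. At Day 3 *Tspan3*, *Tspan13* and *Tspan14* were called higher and *Tspan9*, *Tspan17* and *Tspan32* lower. At Day 7 *Tspan6*, *Tspan13*, *Tspan14* and *Tspan15* were called higher and none lower, and at 4 weeks the same 4 were higher and *Upk1b* was lower. With the replicate number as a block within each time point, the calls among the 16 numbered 9, 8 and 8 in place of 6, 4 and 5. The share over all genes rose as given above. The calls gained were lower values of *Tspan4*, *Rom1* and *Upk1b* at Day 3, of *Cd53*, *Rom1*, *Tspan5* and *Upk1b* at Day 7, and of *Tspan4* and *Rom1* at 4 weeks, and a higher value of *Tspan7* at 4 weeks. Medians over the 16 were -0.45, -0.17 and -0.10 at the 3 time points.

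*Tspan14*, *Tspan15*, *Tspan5*, *Tspan10*, *Tspan17* and *Tspan33* encode the TspanC8 tetraspanins, which escort the protease ADAM10 to the cell surface and set what it cuts. *Tspan14* was at 11.2 to 17.1 CPM in all control libraries and 44.5 to 68.0 CPM in all *Sox17*-*Erg* libraries. Its log2 fold change was 1.60 ± 0.15 (adjusted p = 0.00071, edgeR) at Day 3, 1.97 ± 0.15 (adjusted p = 0.00012, edgeR) at Day 7 and 1.93 ± 0.16 (adjusted p = 6.3e-05, edgeR) at 4 weeks, and each call was kept without any 1 library. *Tspan15* was at 0.175 and 0.529 CPM in control and 8.71 and 6.44 CPM with *Sox17*-*Erg* at 4 weeks (log2 4.49 ± 0.69, adjusted p = 0.0019, edgeR), a call also kept without any 1 library. Its Day 7 call (2.2 ± 0.65, adjusted p = 0.046, edgeR) was lost in 8 of 12 such fits (1.88 to 2.52 over the 12) and in the fit of Day 7 alone. *Tspan17* was at 45.0 and 62.0 against 19.2 and 29.2 CPM at Day 3 (log2 -1.14 ± 0.25, adjusted p = 0.021, edgeR), lost without control replicate 2 or *Sox17*-*Erg* replicate 1 of Day 3 (-1.48 to -0.92 over all libraries left out). *Tspan5* and *Tspan33* were not called against control without a block, and *Adam10* itself was at 148 to 226 CPM with no call against control.

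*Tspan13* was low in control, at 0.122 to 0.362 CPM or 3 to 9 counts per library, and at 0.956 to 2.04 CPM with *Sox17*-*Erg*. Its log2 fold changes were 2.57 ± 0.57, 2.38 ± 0.55 and 3.01 ± 0.59 (adjusted p = 0.022, 0.018 and 0.0063, edgeR), of which the Day 3 and the Day 7 call were each lost without any of 3 libraries of that time point (1.82 to 2.98 over all libraries left out). *Upk1b* was lower at 4 weeks by a log2 fold change of -2.68 ± 0.55 (adjusted p = 0.0083, edgeR), a call lost without *Sox17*-*Erg* replicate 2 of 4 weeks (-3.19 to -2.30 over all libraries left out), beside the mesothelial marker values above. *Tspan3* was at 63.0 and 61.3 against 93.5 and 87.6 CPM and *Tspan9* at 140 and 165 against 83.4 and 106 CPM at Day 3 (adjusted p = 0.038 and 0.039, edgeR). Both calls were lost in 6 or more of 12 fits that left out 1 library, with log2 values of 0.45 to 0.59 and -0.87 to -0.57. *Tspan32*, with 1 to 29 counts per library, was lower at Day 3 by a log2 value of -2.61 ± 0.66 (adjusted p = 0.036, edgeR), a call that was lost in the fit of Day 3 alone and in 8 of 12 fits without 1 library (-4.02 to -1.86 over the 12). DESeq2 gave it no adjusted p. *Tspan6* was higher by 0.40 ± 0.11 at Day 7 and 0.37 ± 0.11 at 4 weeks (adjusted p = 0.036 and 0.045, edgeR), lost in 10 and 11 of the 12 fits (0.27 to 0.43), without a filter on low counts and in fits of single time points, and at 4 weeks also by DESeq2. *Tspan4* (80.2 to 198 CPM), *Tspan31* (71.4 to 104 CPM), *Tspan7* (4.27 to 11.9 CPM), *Rom1* (2.33 to 7.11 CPM), *Cd53* (1.38 to 10.4 CPM) and *Tspan33* (0.302 to 1.1 CPM) were not called against control at any time point. Other settings called some of them. The log2 fold change of *Tspan4* was -0.73 ± 0.22 at Day 3 and -0.67 ± 0.22 at 4 weeks (adjusted p = 0.058 and 0.053, edgeR), and both passed by DESeq2 and with either block (-0.76 to -0.66). *Cd53* at Day 7 (-1.67 ± 0.57, adjusted p = 0.075, edgeR) passed by DESeq2 and with the block within the time point. *Upk1b* at Day 3 and Day 7 passed by DESeq2 and with either block.

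Over time, *Tspan6* fell in both treatments, by 1.32 ± 0.11 in control (adjusted p = 0.00024, edgeR) and 0.85 ± 0.11 on the log2 scale with *Sox17*-*Erg* (adjusted p = 0.0012, edgeR), from 24.0 and 27.6 to 10 and 10.5 CPM and from 23.5 and 24.4 to 12.6 and 13.9 CPM. *Tspan9* also fell in both, by 1.05 ± 0.18 and 0.54 ± 0.18 (adjusted p = 0.004 and 0.046, edgeR), the latter call being lost in 10 of 12 fits without 1 library (-0.65 to -0.36 over the 12). *Tspan3* rose in both, by 0.91 ± 0.14 and 0.61 ± 0.14 (adjusted p = 0.0024 and 0.011, edgeR), the latter call being lost without *Sox17*-*Erg* replicate 2 of Day 3 or of 4 weeks (0.57 to 0.72 over all libraries left out). *Tspan5* also rose in both, by 1.09 ± 0.24 in control and 1.5 ± 0.24 with *Sox17*-*Erg* (adjusted p = 0.011 and 0.0029, edgeR), the control call being lost without control replicate 2 of Day 3 or replicate 1 of 4 weeks (0.81 to 1.41 over all libraries left out). *Tspan7* and *Tspan15* were called higher over time with *Sox17*-*Erg* (1.41 ± 0.27 and 2.01 ± 0.60) and not in control (0.21 ± 0.27 and -1.51 ± 0.69), but the differences between these changes had adjusted p = 0.14 and 0.079 (edgeR). The *Tspan15* call was lost without any 1 of the 4 *Sox17*-*Erg* libraries of Day 3 and 4 weeks (1.61 to 2.60). None of the 16 genes was called for the difference in effect between 4 weeks and Day 3 by edgeR with the filter on low counts, while DESeq2 and edgeR without the filter called *Tspan15* and *Tspan17*.

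**Figure D4:**
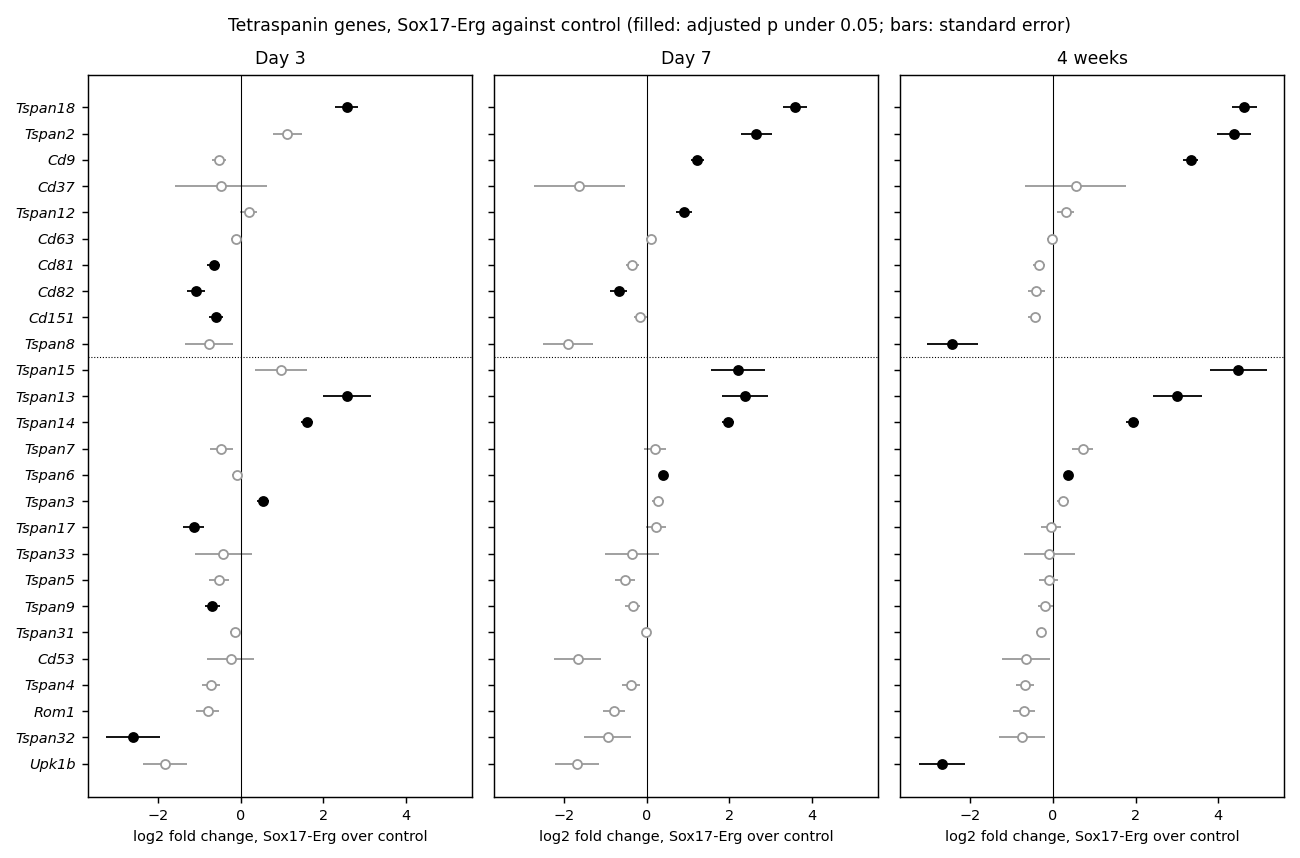
Log2 fold change of *Sox17*-*Erg* over control (x axes, the same range in each panel) for the 10 genes described (above the dotted line) and the 16 other tetraspanin genes tested (below it) at Day 3, Day 7 and 4 weeks, with bars for the standard error and filled points for adjusted p under 0.05. *Tspan18*, *Tspan13* and *Tspan14* are filled and right of 0 in all 3 panels, and *Cd9* moves from -0.53 to 3.34.

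Per length, *Cd81* was the most abundant tetraspanin transcript in every group, at 412 ± 41.2 to 942 ± 13.7 TPM (counts per merged exon length, scaled to the same total in each library, mean ± SD, n = 2). Without scaling to length, *Cd63* was at 386 and 418 CPM and *Cd81* at 349 and 445 CPM with *Sox17*-*Erg* at Day 3. The order and the shares below therefore depend on the merged exon lengths. *Cd9* went from the fifth to the 11th place of the 31 genes between Day 3 and 4 weeks in control, from 133 ± 6.86 to 31.8 ± 0.897 TPM. With *Sox17*-*Erg* it went from the sixth to the third place, from 90.3 ± 6.18 to 328 ± 39.2 TPM. At 4 weeks with *Sox17*-*Erg*, *Cd63* (352 ± 12.3 TPM), *Cd9* and *Cd151* (312 ± 27.0 TPM) were neighbours in the order whose means lay within their spread. *Cd9* made up 5.72% ± 0.474, 2.72% ± 0.131 and 1.18% ± 0.0198 of the summed TPM of the family in control at the 3 time points and 5.50% ± 0.146, 6.82% ± 0.587 and 13% ± 1.86 with *Sox17*-*Erg* (mean ± SD, n = 2). Relative to *Cd81* in the same library, the TPM of *Cd9* was 19.1% and 20.8% in control and 22.4% and 21.5% with *Sox17*-*Erg* at Day 3, and 3.35% and 3.41% against 46.5% and 40.1% at 4 weeks. *Tspan18* rose from the 20th place in each control group to the 10th with *Sox17*-*Erg* at 4 weeks, at 45.3 ± 8.67 TPM against 1.80 ± 0.186 TPM in control. *Tspan2* was at 0.736 ± 0.0243 TPM in control and 15.6 ± 1.37 TPM with *Sox17*-*Erg* at 4 weeks, and *Cd37* at 0.391 to 2.13 TPM in all groups. The summed TPM of the family was 2280 to 2720 in control libraries, 1590 and 1690 with *Sox17*-*Erg* at Day 3, and 2230 to 2570 later.

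**Figure D5:**
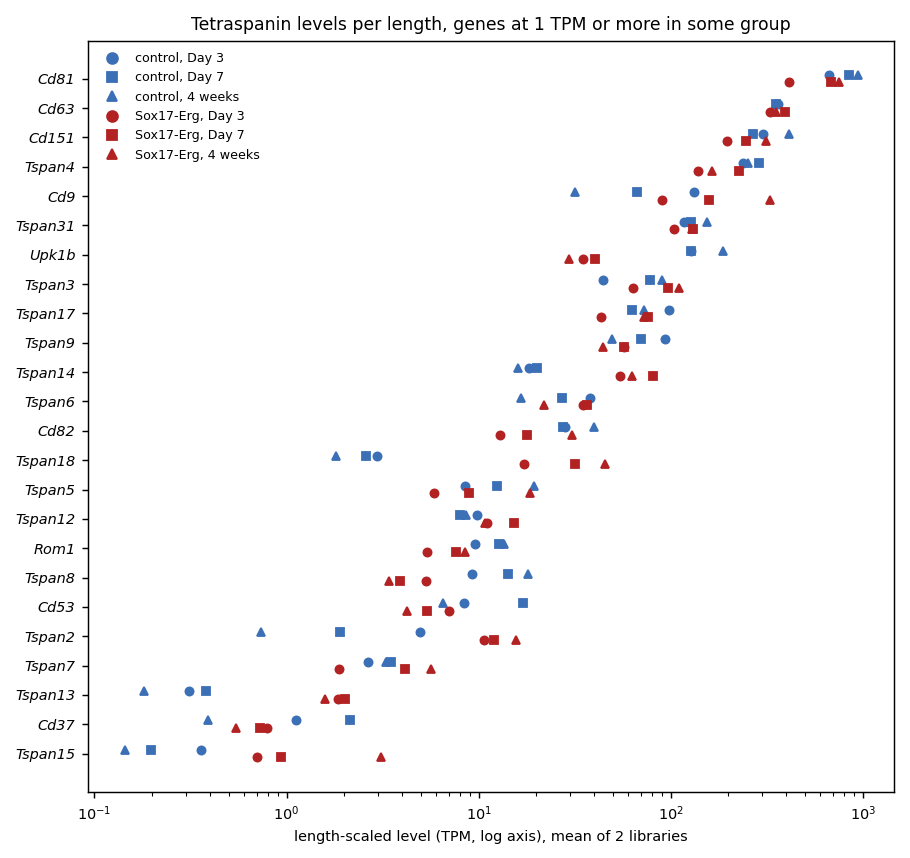
Length-scaled level (TPM, log axis, mean of 2 libraries) of each tetraspanin gene that reached 1 TPM in some group (y axis), control in blue and *Sox17*-*Erg* in red, with a shape for each time point. *Cd81* is highest in every group, *Cd9* spans 31.8 TPM in control to 328 TPM with *Sox17*-*Erg* at 4 weeks, and all *Tspan18* means are 2.95 TPM or less in control and 17.2 TPM or more with *Sox17*-*Erg*.

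All 20 genes for proteins known to act with tetraspanins were tested. Day 3 had 2 called higher and 2 lower (against 7.19% and 5.13% of all genes). Day 7 had 3 and 2 (against 9.48% and 7.93%), and the 4-week samples had 5 and 2 (against 11.9% and 11%). Several act with members above. *Fzd4*, the receptor that TSPAN12 assists, was at 18.4 to 58.5 CPM in control and 118 to 264 CPM with *Sox17*-*Erg*, with log2 fold changes of 2.68 ± 0.23, 2.33 ± 0.23 and 1.98 ± 0.23 (adjusted p = 0.00048, 0.00034 and 0.0004, edgeR). Its co-receptor *Lrp5* was lower at all 3 time points, by -0.83 ± 0.19, -0.90 ± 0.19 and -0.62 ± 0.19 (adjusted p = 0.029, 0.014 and 0.048, edgeR). These calls were lost in 4, 2 and 8 of 12 fits without 1 library (-1.25 to -0.58 over all). *Ndp*, the Norrin ligand, had 3 counts in the 2 control libraries and 28 in the 2 *Sox17*-*Erg* libraries of 4 weeks, a CPM ratio of 10.9 (95% exact binomial interval 3.37 to 56.0, counting error only). Its call (adjusted p = 0.018, edgeR) was lost without any of 3 libraries of 4 weeks. Hence the receptor was higher, the co-receptor lower and the ligand at the lower limit of counts. *Orai1* was called at Day 7 alone, lower by -0.58 ± 0.16 (adjusted p = 0.039, edgeR), and that call was lost in 9 of 12 fits without 1 library (-0.76 to -0.45 over the 12).

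*Ptgfrn* and *Igsf8* encode the immunoglobulin proteins that bind CD9 and CD81 directly. *Ptgfrn* was at 179 and 194 CPM in control and 361 and 332 CPM with *Sox17*-*Erg* at 4 weeks (log2 0.89 ± 0.15, adjusted p = 0.0034, edgeR). *Igsf8* was at 26.4 to 38.6 CPM in all libraries with no call. *Hbegf*, the growth factor whose membrane form binds CD9, was at 19.7 and 22.0 against 67.8 and 47.7 CPM at 4 weeks (1.47 ± 0.39, adjusted p = 0.024, edgeR), a call lost without any of 3 libraries of 4 weeks (1.18 to 1.67 over all libraries left out). *Itga3*, the laminin-binding integrin chain that pairs with CD151, was lower at Day 3 (-1.62 ± 0.37, adjusted p = 0.026, edgeR) and 4 weeks (-1.33 ± 0.37, adjusted p = 0.029, edgeR). Each call was lost without any of 3 libraries of its time point (-2.03 to -1.07 over all libraries left out). *Itga4* was higher at Day 7 (1.71 ± 0.41, adjusted p = 0.021, edgeR), lost without control replicate 2 or *Sox17*-*Erg* replicate 1 of Day 7 (1.03 to 2.14 over all libraries left out). *Cd44*, an adhesion receptor found in tetraspanin microdomains, was higher at each time point, by 1.08 ± 0.26, 2.75 ± 0.27 and 3.67 ± 0.28 (adjusted p = 0.029, 0.00036 and 5.2e-05, edgeR), and its effect grew by 2.59 ± 0.37 from Day 3 to 4 weeks (adjusted p = 0.0083, edgeR). The Day 3 call of *Cd44* was lost without any 1 of the 4 libraries of Day 3 (0.90 to 1.25), and its other calls were kept without any 1 library.

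The genes whose log2 CPM, centered per gene, was nearest to that of *Cd9* over the 12 libraries were *Parvb*, *F2rl1*, *P2rx7*, *Plxnd1* and *Myzap*. Their root mean square differences from *Cd9* were 0.313, 0.390, 0.391, 0.420 and 0.433, where *Cd9* itself had an SD of 1.09. *Parvb* was at 7.62 and 9.39 CPM in control and 105 and 70.5 CPM with *Sox17*-*Erg* at 4 weeks, and *Plxnd1* at 27.8 and 25 against 150 and 148 CPM. The nearest gene to *Tspan2* was *Cd44* (0.303) and that to *Tspan18* was *Nhsl1* (0.349), which was at 6.49 and 5.73 against 140 and 98.7 CPM at 4 weeks. For *Cd37* it was *Alox5ap* (0.202), at 0.125 to 7.15 CPM, and for *Tspan8* it was *Stk26* (0.292), at 16.6, 24.1 and 28.7 CPM in control replicate 1 and 5.50, 10.7 and 21.8 CPM in control replicate 2. *Cd63*, *Cd81*, *Cd82*, *Cd151* and *Tspan12* were nearest to *Npepps* (0.0747), *Mettl21a* (0.0851), *Mindy2* (0.166), *Lnpep* (0.124) and *Sertad1* (0.153).

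Several members lie close to another tetraspanin gene. *Tspan18* and *Cd82* are neighbours on chromosome 2, with 84605 bases between them, and at Day 3 their log2 fold changes were 2.56 ± 0.28 and -1.08 ± 0.21. *Cd151* and *Tspan4*, with 3766 bases between them on chromosome 7, were at -0.60 ± 0.16 and -0.73 ± 0.22 (adjusted p = 0.058 for *Tspan4*, edgeR). *Cd81* and *Tspan32*, 33094 bases apart on the same chromosome, were at -0.66 ± 0.15 and -2.61 ± 0.66. *Cd9-ps* and *Cd63-ps*, pseudogenes that share the most sequence with *Cd9* and *Cd63*, were at 0 and at most 0.146 CPM, and reads could be split between such copies.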

How the data were processed

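RNA was isolated with TRIzol, libraries were made with the Kapa mRNA Stranded Kit, and reads were demultiplexed with bcl2fastq 2.20.0, trimmed for high GC content with BBDuk and quantified with Salmon against mm10, per the methods of the study and the submitters' processing notes. The authors deposited estimated counts per gene, rounded to whole numbers and not normalized. The Salmon version, its strand setting and the annotation are not given in the sources used here. The authors used DESeq2, and no fold changes or p-values of theirs were used.

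Symbols, positions and merged exon lengths came from GENCODE M21 (GRCm38), which held 35422 of the 35727 genes. In R 4.3.3, edgeR 4.0.16 was run with TMM factors and filterByExpr (minimum count 10, minimum total 15), which kept 15506 genes. Each of the 6 groups had its own mean in the quasi-likelihood fit, with 6 residual degrees of freedom over the 12 libraries. The threshold for a call was 0.05 on the p adjusted by Benjamini-Hochberg. Replicates differed far beyond counting error (chi-square per degree of freedom 27.6 to 71.1), so errors are standard errors of the fit or SDs of 2 libraries. The script was tested on simulated data.

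The 10 genes and all gene lists were chosen with earlier results of these data known. Named were all tetraspanins, partner genes called against control, and the tested genes nearest each member. Endothelial, fibroblast, leukocyte, mesothelial, smooth muscle, cardiomyocyte and glial marker lists were summed per library. Summed cardiomyocyte markers were at 636 to 1520 CPM in control and 328 to 685 CPM with *Sox17*-*Erg*, and glial markers at 11.3 to 38.1 and 8.39 to 16.9 CPM. Alternatives were DESeq2 1.42.0, its size factors, no filter, a filter of 1 CPM in 4 libraries, single time points, the replicate number as a block, an adjusted p under 0.01, another prior count, and leaving out each library. The replicate block within each time point was added after the data were seen.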

Additional observations from a re-analysis of the deposited data

Results flagged for a closer look

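The effect of *Sox17*-*Erg* differed between 4 weeks and Day 3 by the interaction term of the edgeR fit for 3 tetraspanins. For *Cd9* the difference was 3.87 ± 0.24 on the log2 scale, for *Tspan2* 3.26 ± 0.53 and for *Tspan18* 2.06 ± 0.38. In all 3 the control level was lower at 4 weeks than at Day 3 and the *Sox17*-*Erg* level was higher, although the *Tspan2* change with *Sox17*-*Erg* and the *Tspan18* change in control were not called. These genes were put forward with results of the same libraries known.

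For a further 2 genes both *Sox17*-*Erg* libraries lay on opposite sides of both control libraries at different time points. *Cd63* was lower at Day 3 and higher by 0.11 at Day 7, with a standard error of 0.12. *Tspan7* was lower at Day 3 and higher by 0.20 at Day 7, with a standard error of 0.26. Both Day 7 values were smaller than their standard errors. The share of all genes tested that switch sides in this way is not given here, so the 2 genes are a description only. The difference between Day 3 and Day 7 was not tested for either gene.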

How the results depend on the processing

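At an adjusted p under 0.01, the 10 genes had 1 call at Day 3 and 3 at Day 7 in place of 4 and 5, and the other tetraspanins 1 at Day 3 and 1 at Day 7 in place of 6 and 4, with 2.72% and 7.1% of all genes called in place of 12.3% and 17.4%. Over all tetraspanins 7 of 11 calls over time with *Sox17*-*Erg* and 1 of 3 differences in effect were left, with 13.7% and 0.793% of all genes in place of 30.7% and 3.21%. The other tetraspanins had 1 call at Day 7 when that time point was fitted alone, where 7.46% of all genes were called. DESeq2 and the fit without a filter each gave 5 differences in effect, with 6.8% and 4.59% of all genes in place of 3.21%. With the replicate block over all 12 libraries the 10 genes had 4, 6 and 4 calls at Day 3, Day 7 and 4 weeks in place of 4, 5 and 4, and the other tetraspanins 9, 6 and 7 in place of 6, 4 and 5, with 14.6%, 19.6% and 24.6% of all genes called. A replicate block within each time point gave the other tetraspanins 8 calls at Day 7 and 8 at 4 weeks in place of 4 and 5, and the share of all genes called rose as well, to 27.1% and 31%. This block also added calls for *Cd9* and *Tspan2* at Day 3, *Tspan8* at Day 7 and *Cd151* at 4 weeks. Deviations of same-numbered control and *Sox17*-*Erg* libraries correlated across genes by 0.186, 0.301 and 0.171 within the 3 time points, and by -0.14 to 0.219 between groups of different time points. The labels do not say that equal numbers share an isolation, so whether they pair libraries within a time point is not settled, and the fit without a block was kept.

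Each library was left out in turn, and the library left alone in its group was then assumed to vary like the other groups. Over these fits the calls among the 10 genes numbered 1 to 4, 3 to 5 and 3 to 5 at the 3 time points, and those among the other tetraspanins 1 to 6, 1 to 5 and 3 to 5. The share of all genes called moved too, over 1.69% to 12.3%, 5.69% to 15.5% and 10.5% to 22.2%. At Day 3 it was 2.34% and 2.28% without control replicate 1 or 2 and 1.69% without *Sox17*-*Erg* replicate 1. All tetraspanins had 5 to 8 calls over time in control, 6 to 11 with *Sox17*-*Erg* and 1 to 3 differences in effect, with 11% to 26%, 13.2% to 29.8% and 1.06% to 2.97% of all genes. Counts moved over 1.5 times at Day 3 without either control library or *Sox17*-*Erg* replicate 1 of that day, and for the other tetraspanins also without either *Sox17*-*Erg* library of 4 weeks. They did so at Day 7 without control replicate 2 or *Sox17*-*Erg* replicate 1 of that day, and for the other tetraspanins also without control replicate 1 of Day 7 or *Sox17*-*Erg* replicate 1 of 4 weeks, and at 4 weeks for the other tetraspanins without *Sox17*-*Erg* replicate 2. Calls over time with *Sox17*-*Erg* did so without replicate 1 of Day 3 or either library of 4 weeks, and differences in effect without control replicate 1 of 4 weeks, *Sox17*-*Erg* replicate 2 of Day 3 or *Sox17*-*Erg* replicate 1 of 4 weeks. Signs turned for some values that were not called. *Cd63* at 4 weeks ranged from -0.12 to 0.08, *Cd151* at Day 7 from -0.35 to 0.03 and *Tspan8* at Day 3 from -1.42 to 0.22, the positive value without control replicate 1. *Cd37* at 4 weeks ranged from -0.82 to 6.91, the latter against a lone control library with 0 counts and so no bound. Over the 7 other settings and all comparisons, 4 calls were lost and 19 gained among the 10 genes, 10 and 37 among the other tetraspanins, and 6 and 43 among the partners, and 0 called values turned sign. The cause was not tested. The 5 genes nearest *Cd9* were the same with a prior count of 0.5, and the nearest gene to *Cd37* became *Cd48*. An SD over 2 libraries is a rough estimate, and so are the values of genes of few counts (*Cd37*, *Tspan13* and *Tspan32*).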
